A study of Mus musculus with 24 samples.

Results

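Liver RNA of C57BL/6 mice given the TLR5 agonist CBLB502 before cisplatin was compared with liver RNA of mice given cisplatin alone. The 6 libraries, 3 in each group, are 6 of the 24 in the series and were chosen by tissue and treatment, not by any measured value. Both groups received cisplatin into the peritoneum at 20 mg/kg and had their livers taken at 72 h. The combination group had in addition received CBLB502 at 0.2 mg/kg, 30 min before the drug. A further 2 liver groups of 3 libraries each are used below for reference: CBLB502 alone at the same dose, also at 72 h, and controls for which the labels state no agent, dose or time. The same 2 cisplatin arms of kidney serve for the comparison between organs. No transgene or mutation is named for any group, and the labels give neither the age nor the clock time of collection. Nothing in them says that the libraries of a group came from different animals. The p-values therefore rest on library-to-library spread, part of which may be technical.

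Cisplatin is a platinum compound that binds DNA and links its strands, which blocks replication and transcription and activates the p53 pathway. Its dose is limited by damage to kidney and, less often, to liver. CBLB502 is a shortened form of bacterial flagellin that binds the toll-like receptor TLR5. TLR5 signals through MyD88 to NF-kB, and in liver this leads to cytokine release and to the transcription of acute-phase proteins, which hepatocytes secrete in inflammation under the control of IL-6, STAT3 and C/EBP factors. The series title names protection by CBLB502 as its subject, and the comparison asks how the liver at the end of a cisplatin course differs when the agonist came first.

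Levels are in CPM, counts per M (mega) of a library size scaled by the trimmed mean of M-values. For each gene the values of cisplatin libraries 1, 2 and 3 come first and those of combination libraries 1, 2 and 3 second. A log2 fold change is combination over cisplatin and is followed by its SE. Adjusted p-values come from the quasi-likelihood test of edgeR and are adjusted by Benjamini-Hochberg over all tested genes, and a gene is called at an adjusted p under 0.05.

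The 6 libraries held 71.24 M to 77.54 M counts each, and the cisplatin libraries were not alike. The distance between 2 libraries, taken as the median over genes of the absolute log2 difference, was 0.25 to 0.27 among the combination libraries. Cisplatin libraries 1 and 2 were 0.33 apart, but library 3 stood 0.82 and 0.73 from them. Library 3 was nearer to the combination libraries, at 0.50 to 0.52, whereas libraries 1 and 2 were at 0.67 to 0.80. The 10 most abundant genes took 31.7% and 29.4% of counts in cisplatin libraries 1 and 2, 17.8% in library 3 and 18.7% to 21.4% in the combination. Mitochondrial genes took 2.57%, 2.94% and 5.70% of counts after cisplatin and 4.39% to 5.25% in the combination. In the control livers they took 69.3% to 72.2%, so control levels are given only as a reference. All 6 libraries carried the markers of liver, with Alb at 38460 CPM or more, and the summed level of 10 kidney tubule markers was 4.01 to 42.8 CPM.

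**Figure D1:**
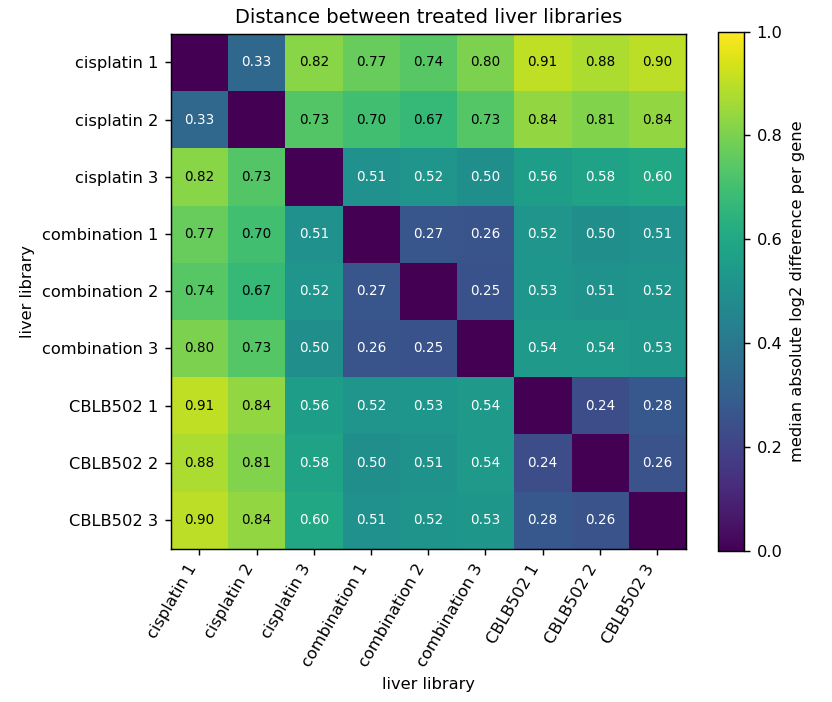
Distance between the 9 treated liver libraries, as the median over genes of the absolute log2 difference (colour and printed value). The 3 combination libraries form a tight block at 0.25 to 0.27, cisplatin libraries 1 and 2 are 0.33 apart, and cisplatin library 3 is nearer to the combination than to the other two cisplatin libraries.

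The combination differed from cisplatin in 640 of 17931 tested genes (3.57%), of which 178 were higher (0.993%) and 462 lower (2.58%). At an unadjusted p under 0.05 there were 3790. This fit included the control libraries. The count was 1471 of 17890 genes with the 9 treated liver libraries and 83 of 16297 with only the 6 libraries compared. The 3 combination libraries lay wholly outside the range of the cisplatin libraries for 5128 genes (28.6% of those tested), 15.7% above and 12.9% below. Of the 640 called genes, 610 were separated in this way. Genes that fell included acute-phase proteins, macrophage and neutrophil markers, the lipid enzyme gene Scd1 and many ribosomal protein genes, and genes that rose included enzymes of nitrogen and one-carbon metabolism and 2 clock genes. Without cisplatin library 3 the count was 4278 of 18531 genes (2321 higher, 1957 lower), which held 638 of the 640. List counts without that library, given below, stand beside this larger share. Without combination library 1, 2 or 3 the count over all genes was 6, 7 and 13, and without cisplatin library 1 or 2 it was 167 and 159. Of the 74 called genes among those chosen for description, 6, 6 and 8 were called without combination library 1, 2 or 3, and none changed sign. Among these survivors, 5 had been chosen because they were called whichever library was left out, so the choice fixed most of this count. None of the 38 gene lists described below had a called member when any 1 combination library was left out, and for the 5 families collected by symbol the counts are given with them. The share of called genes that were higher was 27.8%, but 10.8% (70 higher, 579 lower) once a trend with gene length was removed from each library, and 79.3% (2324 higher, 605 lower) on log2(FPKM + 1) values with limma. Removing the length trend also moved the median log2 fold change of all genes from 0.01 to -0.13.

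Of 29 tested acute-phase genes, 7 fell in the combination and none rose (24.1%, beside 3.57% of all genes). Most of the distance lay between the combination and cisplatin libraries 1 and 2. The list had a median log2 fold change of -1.58. Without cisplatin library 3 the count was 22 lower and the median -2.09. Without cisplatin library 1 or 2 there were 2 called members. Summed over the list, the level was 261400, 196500 and 43340 CPM after cisplatin and 42500, 54660 and 44300 CPM in the combination, against 17230 to 18750 CPM with CBLB502 alone. Cisplatin library 3 thus lay inside the range of the combination for the sum.

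Hpx encodes hemopexin, the plasma protein that scavenges free haem, and was the acute-phase gene with the lowest p. It stood at 46190, 30800 and 9573 CPM after cisplatin and at 2404, 3910 and 3045 CPM in the combination. Each cisplatin library was above each combination library, and library 3 was the lowest of its group. The mean was 9.25-fold lower in the combination (log2 fold change -3.21 ± 0.495, adjusted p = 0.0102). Orm1, an orosomucoid that binds drugs and lipids in plasma, followed the same order at 9417, 7283 and 1218 CPM against 610, 946 and 649 CPM (-3.02 ± 0.62, adjusted p = 0.0263). Itih4, which encodes an inter-alpha-trypsin inhibitor heavy chain, was at 7483, 5651 and 1976 CPM against 1316, 1750 and 1432 CPM (-1.75 ± 0.413, adjusted p = 0.0434). Serpina3f, a serine protease inhibitor gene, was at 52.2, 7.495 and 1.28 CPM against 0.203, 0.238 and 0.287 CPM (-6.38 ± 1.19, adjusted p = 0.0193). None of these 4 genes overlapped between the groups.

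Other members of the family overlapped because of cisplatin library 3. Saa1, a serum amyloid A apolipoprotein that marks acute inflammation, was at 25320, 10130 and 171 CPM against 262, 468 and 132 CPM (-5.37 ± 1.32, adjusted p = 0.0489). Library 3 lay between the lowest and the second-lowest combination library. Saa2, its neighbour, was at 18550, 7492 and 16.3 CPM against 92.2, 143 and 33.3 CPM and missed the threshold (adjusted p = 0.0535). The fibrinogen gamma chain gene Fgg was called (21510, 17570 and 2629 CPM against 2738, 3195 and 2621 CPM; -2.29 ± 0.555, adjusted p = 0.0465), as was Saa3 (adjusted p = 0.0367). Lcn2, which encodes the iron-siderophore trap lipocalin-2 and is used as an injury marker, was at 6566, 4522 and 53.4 CPM against 410, 717 and 326 CPM. Cisplatin library 3 was here below every combination library, and the difference was not called (-2.94 ± 1.06, adjusted p = 0.138). Without that library the adjusted p of Lcn2 was 0.000177.

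The stretch before the start of Saa1 and Hpx is shown because Hpx had the lowest p of the list and Saa1 is its most used marker. The bases are from RefSeq, build GRCm38.p6, 5′ to 3′ on the strand of the gene, ending at the base before the start. Saa1 is at chr7:46742981-46743230 (minus strand, 250 bases) and Hpx at chr7:105600138-105600366 (minus strand, 229 bases). Capitals mark matches on either strand to 6 motifs: E-box CACGTG, D-box TTATGTAA, ROR core AGGTCA, the NF-kB decamer, C/EBP TTGCNNAA and STAT TTCNNNGAA.
Saa1: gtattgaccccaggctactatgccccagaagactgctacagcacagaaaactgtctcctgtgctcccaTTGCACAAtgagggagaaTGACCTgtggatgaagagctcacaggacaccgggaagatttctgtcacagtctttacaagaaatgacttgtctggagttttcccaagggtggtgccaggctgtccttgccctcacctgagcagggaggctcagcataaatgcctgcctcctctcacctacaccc
Hpx: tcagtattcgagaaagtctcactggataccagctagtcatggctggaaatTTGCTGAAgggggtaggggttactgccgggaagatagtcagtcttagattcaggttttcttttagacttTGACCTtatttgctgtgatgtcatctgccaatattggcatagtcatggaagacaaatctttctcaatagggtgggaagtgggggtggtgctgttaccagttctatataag
Both windows hold 1 C/EBP match, TTGCACAA in Saa1 and TTGCTGAA in Hpx, and both hold 1 ROR core read on the opposite strand as TGACCT. Of 32851 mouse promoters of 250 bases, 9.56% hold the C/EBP letters and 14.0% the ROR core, while 0.98% hold the NF-kB letters and 7.02% the STAT letters. A match is a description of the letters and not a binding site.

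In the list of the IL-6 and STAT3 axis, 4 of 20 tested members fell and none rose (20.0%, beside 3.57% of all genes). The median was -0.92. Without cisplatin library 3 the count was 13 lower and 2 higher, and without any 1 of the other 5 libraries it was 0. With the replicate number as a block 1 was lower and 1 higher. Steap4, a metal reductase gene induced by inflammatory cytokines, was at 1841, 889 and 69.4 CPM against 36.6, 59.5 and 34.5 CPM (-4.42 ± 0.852, adjusted p = 0.0209). The groups did not overlap, and library 3 was closest to the combination. Pim1, a kinase gene downstream of STAT3, was at 36.3, 38.1 and 13.3 CPM against 9.80, 8.48 and 10.7 CPM (-1.60 ± 0.341, adjusted p = 0.0304). Lepr, the leptin receptor gene, was at 72.2, 105 and 0.812 CPM against 0.355, 1.21 and 1.01 CPM (-6.11 ± 1.3, adjusted p = 0.0295). Socs1, which encodes a feedback inhibitor of JAK kinases, was at 13.6, 13.6 and 0.157 CPM against 0, 0.0641 and 0 CPM (-8.67 ± 1.88, adjusted p = 0.0325). Its relative Socs3 was at 217, 295 and 15.2 CPM against 8.62, 20.4 and 11.6 CPM and was not called (adjusted p = 0.0691).

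Among NF-kB feedback genes and cytokines, 3 of 24 tested members fell and none rose (12.5%, beside 3.57% of all genes). The median was -1.05, and 12 fell without cisplatin library 3. Without any 1 of the other 5 libraries, with the replicate number as a block and with limma-voom the count was 0. Il1rn, the gene of the interleukin-1 receptor antagonist, was at 330, 164 and 1.41 CPM against 1.54, 4.21 and 1.29 CPM (-6.14 ± 1.42, adjusted p = 0.0404). Ier3, an immediate-early gene, was at 128, 53.1 and 0.393 CPM against 0.457, 0.321 and 0.305 CPM (-7.38 ± 1.52, adjusted p = 0.0269). Relb, an NF-kB subunit gene, was called too (adjusted p = 0.042). In all 3 genes cisplatin library 3 lay within the combination range, so these calls rest on cisplatin libraries 1 and 2. Of 16 tested chemokines none was called. Of 21 toll-like receptor genes 2 fell, Cd14 and Tlr1 (9.52%, beside 3.57% of all genes). Cd14, a co-receptor for lipopolysaccharide, was at 494, 193 and 0.751 CPM against 1.79, 3.01 and 1.94 CPM (-6.67 ± 1.45, adjusted p = 0.0331). Tlr5, the receptor of CBLB502, was low in all 6 libraries, at 0.213, 0.218 and 1.08 CPM against 1.28, 1.10 and 2.31 CPM. The combination libraries were the higher ones, but the difference was not called (1.62 ± 0.908, adjusted p = 0.34). Efna1, an ephrin ligand gene among the 12 largest falls, was at 752, 558 and 29.0 CPM against 8.09, 10.98 and 10.2 CPM, which is 45.7-fold lower (-5.51 ± 1.05, adjusted p = 0.0203).

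**Figure D2:**
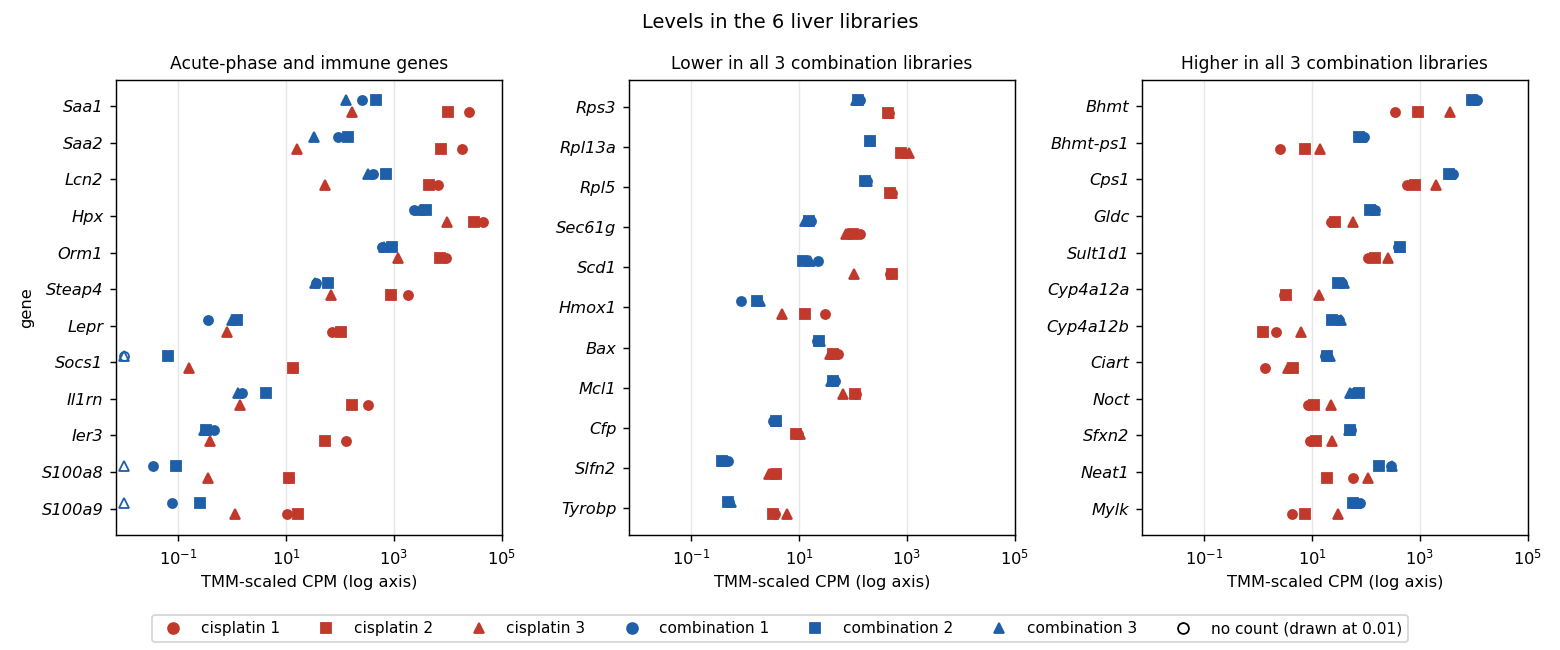
CPM on a log axis of single genes in the 3 cisplatin (red) and 3 combination (blue) libraries, with 1 marker shape per library number and open markers for no count. In the left panel cisplatin library 3 (red triangle) lies near or within the combination for most genes. The middle and right panels show genes picked with all 3 cisplatin libraries on one side of the combination.

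Markers of macrophages and neutrophils were among the genes that fell. In bulk RNA, fewer cells of a type and less RNA per cell cannot be told apart. Of 20 tested Kupffer cell and macrophage markers 7 fell and none rose (35.0%, beside 3.57% of all genes). The 20 fold changes were all below 0, with a median of -1.46. Without cisplatin library 3 there were 9 lower and the median was -0.79. Their summed level was 566, 255 and 158 CPM after cisplatin and 29.7, 34.7 and 44.2 CPM in the combination, against 270 to 476 CPM with CBLB502 alone. The groups did not overlap. Without cisplatin library 1 or 2 there were 2 and 1 called members. Cd14 made up most of the sum in cisplatin libraries 1 and 2. Msr1, a scavenger receptor gene, was at 2.55, 1.41 and 2.52 CPM against 0.457, 0.412 and 0.144 CPM (-2.67 ± 0.467, adjusted p = 0.0149). Mrc1, the mannose receptor gene, was at 4.12, 2.71 and 4.82 CPM against 0.567, 0.669 and 1.70 CPM (-1.99 ± 0.446, adjusted p = 0.0371). Cd68, a lysosomal protein gene of macrophages, was at 3.48, 3.85 and 1.52 CPM against 0.693, 0.696 and 1.09 CPM (-1.83 ± 0.385, adjusted p = 0.0284). Lyz2 and C1qa were called too, at adjusted p of 0.0375 and 0.0431. For Msr1, Mrc1, Lyz2 and C1qa cisplatin library 3 was not the lowest of its group.

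Kupffer cell genes were not all of one pattern. Clec4f, a receptor gene that defines Kupffer cells, was at 9.81, 8.11 and 50.9 CPM against 8.33, 8.95 and 12.5 CPM (adjusted p = 0.278). Cd5l was at 1.60, 1.39 and 27.8 CPM against 1.67, 2.07 and 3.05 CPM (adjusted p = 0.213). For both genes, chosen after their values were seen, cisplatin libraries 1 and 2 were level with the combination and library 3 was high. Chil3, a chitinase-like gene of activated macrophages and neutrophils, was at 12.9, 12.3 and 0.751 CPM against 0.178, 0.311 and 0.251 CPM (-5.12 ± 1.11, adjusted p = 0.0408).

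Tyrobp and Slfn2 were among the genes most evenly separated. Tyrobp encodes the signalling adaptor DAP12 of myeloid and natural killer cells and was at 3.55, 3.25 and 5.96 CPM against 0.490, 0.486 and 0.556 CPM. This is 8.32-fold lower (-3.05 ± 0.37, adjusted p = 0.00562), and CBLB502 alone gave 5.29 to 9.71 CPM. Slfn2, a schlafen gene of immune cells, was at 3.69, 3.71 and 2.73 CPM against 0.474, 0.376 and 0.386 CPM, which is 8.21-fold lower (-3.03 ± 0.311, adjusted p = 0.00228). Slfn2 was 1 of 5 genes called whichever of the 6 libraries was left out. The other 4 were Rps3, Rpl13a and the unnamed loci 1110065P20Rik and 2410006H16Rik. These genes were chosen after their values were seen.

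Neutrophil markers were low throughout, and 9 of 15 could be tested. Of these 3 fell and none rose (33.3%, beside 3.57% of all genes). Of the 9 tested, 8 fell without cisplatin library 3, but none without any 1 of the other 5 libraries. Their summed level over the list was 37.7, 50.1 and 2.58 CPM after cisplatin and 0.482, 0.934 and 0.726 CPM in the combination, against 2.57 to 3.58 CPM with CBLB502 alone. S100a8 and S100a9 encode the 2 subunits of calprotectin. S100a9 was at 10.4, 17.0 and 1.14 CPM against 0.0761, 0.257 and 0 CPM (-6.41 ± 1.21, adjusted p = 0.02), and S100a8 at 11.4, 11.4 and 0.358 CPM against 0.0338, 0.0916 and 0 CPM. Mmp9, a matrix protease gene, had 311 counts after cisplatin and none in the combination, at least 127-fold lower against a floor of 3 counts over the group. The granule genes Mpo, Elane, Ltf, Camp and Mmp8 and the surface marker gene Ly6g were too low to be tested. Bounds of this kind cover counting error only.

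Of 18 lymphocyte markers 1 fell (5.56%, beside 3.57% of all genes). It was the pan-leukocyte phosphatase gene Ptprc, at 0.775, 0.829 and 1.55 CPM against 0.364, 0.229 and 0.224 CPM (adjusted p = 0.0374). Of 14 stellate cell and fibroblast markers 2 fell, Lrat and Rgs5 (14.3%, beside 3.57% of all genes). Lrat, whose enzyme stores vitamin A in stellate cells, was at 0.685, 1.02 and 1.29 CPM against 0.271, 0.202 and 0.395 CPM (-1.78 ± 0.371, adjusted p = 0.0275). None of 14 sinusoidal endothelial, 10 bile duct, 6 erythroid or 10 kidney tubule markers was called. The endothelial median was nonetheless -1.51, close to that of the macrophage list, with 12 of 14 members below 0. Of the 14, 5 were below the cisplatin range in every combination library, beside 12.9% of all genes. DESeq2 called 5 of these endothelial markers lower, and without cisplatin library 3 the median was -0.46. Whether the macrophage and endothelial lists differ was not tested. Of 19 hepatocyte markers 1 was called (5.26%, beside 3.57% of all genes), Cps1, which rose. Alb, the albumin gene, was at 47550, 56960 and 42190 CPM against 38460, 53520 and 43020 CPM, with overlapping groups (-0.12 ± 0.348, adjusted p = 0.904).

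**Figure D3:**
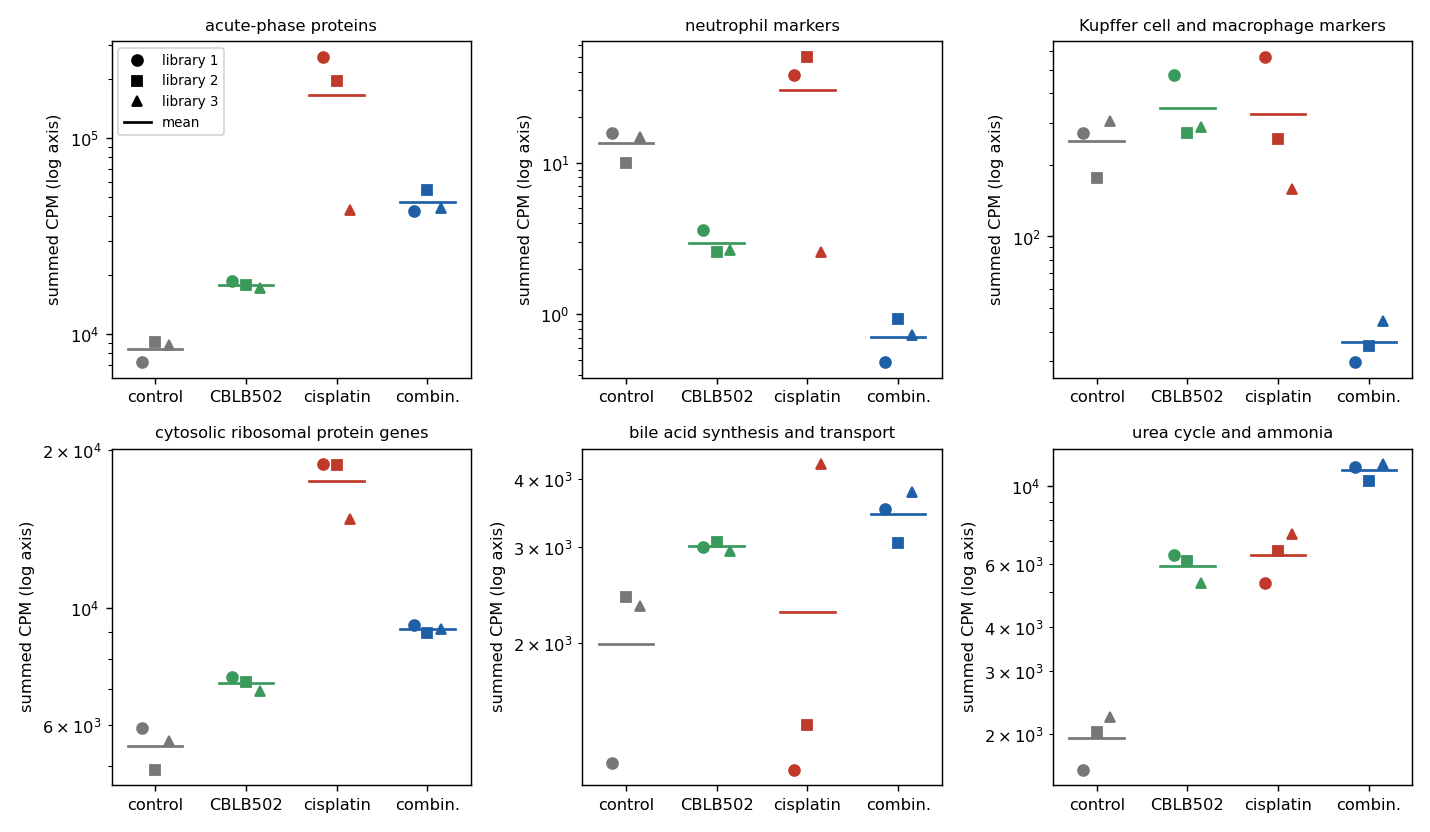
Summed CPM (log axis) of 6 gene lists in each liver library, by group, with 1 marker shape per library number and a bar at the group mean. The combination is below every cisplatin library for ribosomal protein, macrophage and neutrophil genes and above every one for urea cycle genes, while cisplatin library 3 lies within or above the combination for acute-phase and bile acid genes.

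Of 28 tested p53 targets 1 fell and none rose, a share of 3.57%, the same as over all genes. Of the fold changes 14 were above 0, and the median was -0.11. Without cisplatin library 3 there were 5 higher and 5 lower, beside 2321 higher and 1957 lower of all 18531 genes. On log2(FPKM + 1) values 4 were higher and 1 lower, beside 2324 higher and 605 lower of all 17931 genes. Cdkn1a, the cell cycle inhibitor p21 and the main transcriptional readout of p53, was at 423, 319 and 103 CPM against 243, 246 and 211 CPM. The combination libraries lay between the cisplatin libraries, and the adjusted p was 0.789. CBLB502 alone gave 1.95 to 3.11 CPM. Mdm2, the ubiquitin ligase that limits p53, was at 31.0, 16.6 and 32.5 CPM against 66.1, 43.6 and 47.4 CPM. Each combination library was above each cisplatin library, but the gene was not called (0.97 ± 0.278, adjusted p = 0.0763). Bax, which encodes the pore-forming protein of mitochondrial apoptosis, was the member that fell. It was at 53.6, 43.3 and 38.3 CPM against 21.9, 23.9 and 24.8 CPM (-0.94 ± 0.161, adjusted p = 0.0143).

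In the list of regulated cell death 4 of 26 members fell and none rose (15.4%, beside 3.57% of all genes). Among them were Bax, Mcl1 and Tnfrsf12a. The list holds genes that act for and against cell death. Mcl1, which encodes an inhibitor of apoptosis, was at 115, 108 and 65.3 CPM against 46.3, 42.5 and 39.9 CPM (-1.16 ± 0.228, adjusted p = 0.0227). Mcl1 was higher in each cisplatin library than in any combination library. None of 22 tested genes of crosslink, excision and translesion repair, 16 platinum transporter genes or 23 proliferation genes was called.

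Hmox1, haem oxygenase 1, fell and belongs to both the NRF2 and the iron and haem lists. It was at 30.6, 13.1 and 4.78 CPM against 0.820, 1.69 and 1.88 CPM, 11.1-fold lower (-3.46 ± 0.628, adjusted p = 0.0177). With CBLB502 alone it was at 10.6 to 18.0 CPM, above all 3 combination libraries. It was the single call among 20 NRF2 and glutathione genes (5.0%, beside 3.57% of all genes). Hpx was the other call among 19 iron and haem genes (10.5% called, beside 3.57% of all genes). None of 20 unfolded protein and integrated stress response genes was called (median -0.93), and 11 were lower without cisplatin library 3. None of 23 interferon-stimulated genes was called (median -0.43). Without that library 10 were higher and the median was 1.12.

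Of 25 complement genes 3 fell and none rose. Cfp encodes properdin, which stabilises the alternative pathway, and was at 9.69, 8.89 and 10.6 CPM against 3.24, 3.81 and 3.75 CPM (-1.44 ± 0.183, adjusted p = 0.00567). C1qa, a macrophage product named above, was another. Of 27 coagulation genes Fgg was the one called (3.70%, beside 3.57% of all genes).

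Scd1, the desaturase that makes oleate and the gene with the lowest p among lipid enzymes, was at 484, 524 and 104 CPM against 22.2, 11.6 and 15.7 CPM, 22.5-fold lower (-4.49 ± 0.656, adjusted p = 0.00903). Every cisplatin library was above every combination library. With CBLB502 alone Scd1 was at 1627 to 3908 CPM, so the combination was the lowest of the 3 treated groups. It was the only call among 20 fatty acid synthesis genes (5.0%, beside 3.57% of all genes), and the median of that list was 0.22. Among 28 genes of fatty acid oxidation and ketogenesis 2 rose and 1 fell (10.7%, beside 3.57% of all genes). The median was 0.37. Plin2, which coats lipid droplets, fell from 397, 319 and 200 CPM to 105, 89.1 and 147 CPM (-1.42 ± 0.29, adjusted p = 0.0259). The 2 that rose were the neighbouring fatty acid hydroxylase genes Cyp4a12a and Cyp4a12b. Cyp4a12b was at 2.12, 1.20 and 6.31 CPM against 31.1, 23.1 and 34.9 CPM (3.21 ± 0.657, adjusted p = 0.0263), and Cyp4a12a at 2.99, 3.29 and 13.6 CPM against 36.4, 30.5 and 38.9 CPM (2.41 ± 0.567, adjusted p = 0.0425). The sequences of the pair are close, so reads may be split between them. CBLB502 alone gave 29.4 to 59.5 CPM for Cyp4a12b and 73.4 to 112 CPM for Cyp4a12a.

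Single enzymes of one-carbon and nitrogen metabolism rose in the combination. Their lists of 18 methionine, 12 urea cycle and 21 amino acid genes held 1 higher call each, beside 0.993% of all genes. They held 0 without any 1 of the libraries other than cisplatin library 3. Without cisplatin library 3 they held 10, 8 and 12 higher calls, beside 2321 of all 18531 genes. Bhmt, betaine-homocysteine methyltransferase, which remakes methionine, was at 345, 940 and 3565 CPM against 11680, 9389 and 10110 CPM (2.68 ± 0.641, adjusted p = 0.0448). The cisplatin libraries were spread widely and all lay below the combination, and CBLB502 alone gave 1351 to 1685 CPM. The pseudogene Bhmt-ps1 had the largest rise of all named genes, at 2.58, 7.495 and 14.1 CPM against 90.0, 75.1 and 83.8 CPM (3.36 ± 0.485, adjusted p = 0.00844). Its reads may come from Bhmt. Cps1, carbamoyl-phosphate synthetase 1, the entry step of the urea cycle, was at 568, 812 and 1987 CPM against 4040, 3453 and 3863 CPM (1.75 ± 0.431, adjusted p = 0.0481). It was the 1 call among 12 urea cycle genes (8.33%, beside 3.57% of all genes), whose median was 0.71. In all combination libraries 6 of the 12 lay above the cisplatin range, beside 15.7% of all genes. The summed level of the 12 was 5301, 6527 and 7318 CPM after cisplatin and 11300, 10330 and 11510 CPM in the combination.

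Gldc, the glycine decarboxylase gene, was the 1 call among 21 amino acid catabolism genes (4.76%, beside 3.57% of all genes). It was at 22.6, 26.9 and 57.7 CPM against 147, 118 and 146 CPM (1.94 ± 0.435, adjusted p = 0.0371). With the length trend removed from each library, neither Gldc nor any other gene of the list was called. Of those 21 genes, 12 were higher in every combination library than in any cisplatin library and none was lower in that way, beside 15.7% and 12.9% over all genes. In the methionine list of 18 genes Bhmt rose and Nnmt fell (11.1% called, beside 3.57% of all genes). Nnmt uses the methyl donor SAM to methylate nicotinamide and was at 1012, 1178 and 279 CPM against 259, 252 and 230 CPM (-1.74 ± 0.417, adjusted p = 0.0457). Sult1d1, a sulfotransferase gene, rose from 110, 145 and 260 CPM to 394, 437 and 430 CPM (1.29 ± 0.293, adjusted p = 0.0375). Cyp2c70, whose enzyme makes muricholic acids in mice, fell from 988, 1157 and 449 CPM to 212, 388 and 281 CPM (-1.56 ± 0.353, adjusted p = 0.0375). It was the only call among 25 xenobiotic P450 genes (4.0%, beside 3.57% of all genes).

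Of the 12 largest rises, 5 genes that belong to no list and are not pseudogenes remain. Spata2l was at 3.38, 4.135 and 17.3 CPM against 56.0, 52.0 and 54.6 CPM (2.71 ± 0.592, adjusted p = 0.0333). Neat1, a nuclear long non-coding RNA that builds paraspeckles, was at 56.3, 19.0 and 108 CPM against 295, 176 and 302 CPM (2.08 ± 0.489, adjusted p = 0.0425). Mylk, the gene of a myosin light chain kinase, was at 4.19, 7.34 and 30.0 CPM against 76.3, 56.6 and 65.5 CPM, and Car14, a carbonic anhydrase gene, at 2.76, 4.90 and 11.5 CPM against 23.7, 35.4 and 38.4 CPM. Sfxn2, which encodes a carrier of the mitochondrial inner membrane, was at 9.21, 11.7 and 23.0 CPM against 53.8, 50.01 and 48.7 CPM (1.80 ± 0.302, adjusted p = 0.0132). In all 5 genes cisplatin library 3 was the nearest to the combination. That no library crossed between the groups was a condition of the choice.

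Of the bile acid genes none of 20 was called with all libraries (median 0.77), and 16 were higher without library 3 (median 2.09). Cyp7a1, which catalyses the slowest step from cholesterol to bile acids, was at 0.528, 0.687 and 81.8 CPM against 145, 33.4 and 93.2 CPM. Libraries 1 and 2 were near 0 and library 3 lay within the combination (1.71 ± 1.49, adjusted p = 0.57). Without library 3 its log2 fold change was 7.23 and its adjusted p 0.00107.

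**Figure D4:**
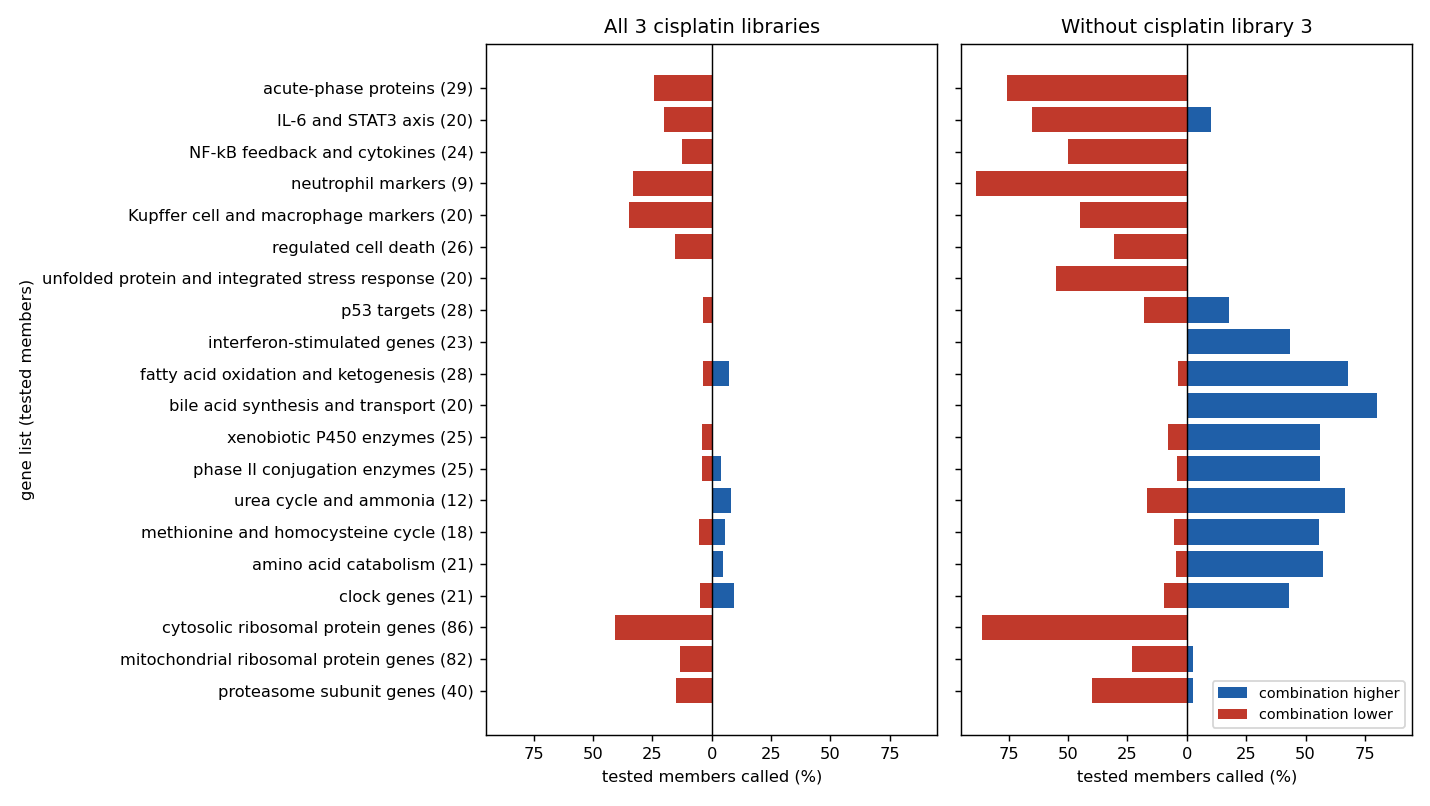
Share of the tested members of 20 gene lists that were called lower (red, left) or higher (blue, right) in the combination, with all cisplatin libraries and without cisplatin library 3. The number tested is in brackets, and the share over all genes was 2.58% lower and 0.993% higher with all libraries. Without cisplatin library 3, 1957 of all 18531 genes were lower and 2321 higher.

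Of 21 clock genes 2 rose and 1 fell (14.3%, beside 3.57% of all genes), with a median of 0.45. Ciart, a repressor of the CLOCK and BMAL1 activators, was at 1.36, 4.51 and 3.63 CPM against 17.4, 18.6 and 21.5 CPM, 6.04-fold higher (2.59 ± 0.391, adjusted p = 0.00984). Noct encodes nocturnin, a phosphatase that acts on NADPH, and was at 8.52, 10.6 and 22.4 CPM against 57.6, 74.1 and 49.99 CPM, 4.37-fold higher (2.13 ± 0.381, adjusted p = 0.0168). Both are also among the 12 largest rises, a choice that required every combination library to be above every cisplatin library. Ciart did not have library 3 nearest to the combination. CBLB502 alone gave 6.19 to 12.1 CPM for Ciart and 23.5 to 43.4 CPM for Noct, between the other 2 groups. Nfil3, a repressor of D-box genes, fell from 100, 135 and 23.0 CPM to 12.1, 22.2 and 17.2 CPM (-2.33 ± 0.499, adjusted p = 0.0312). Dbp, an activator at the same element, was at 0.168, 0.415 and 6.65 CPM against 12.1, 6.74 and 11.2 CPM and was not called (adjusted p = 0.32). The labels give no clock time, and its part in these differences was not tested.

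The promoter windows of the 2 genes that rose are shown because they share the direction and differ in their letters. They are from RefSeq, build GRCm38.p6, 5′ to 3′ on the strand of the gene, with the same 6 motifs in capitals. Ciart is at chr3:95882232-95882478 (minus strand, 247 bases) and Noct at chr3:51224197-51224446 (plus strand, 250 bases).
Ciart: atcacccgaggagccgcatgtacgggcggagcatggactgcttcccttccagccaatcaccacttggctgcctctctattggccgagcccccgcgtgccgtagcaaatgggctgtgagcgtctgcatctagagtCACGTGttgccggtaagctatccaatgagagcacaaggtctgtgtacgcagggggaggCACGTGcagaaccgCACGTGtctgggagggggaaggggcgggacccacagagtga
Noct: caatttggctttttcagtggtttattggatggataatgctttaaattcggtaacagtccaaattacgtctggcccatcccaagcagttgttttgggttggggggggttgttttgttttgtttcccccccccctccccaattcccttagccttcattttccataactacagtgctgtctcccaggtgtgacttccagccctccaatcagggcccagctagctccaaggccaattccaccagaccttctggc
The Ciart window holds 3 copies of the E-box CACGTG, the letters that CLOCK and BMAL1 are known to bind, and 6.02% of 32851 promoters hold at least 1. The Noct window holds none of the 6 motifs. D-box letters, absent from both windows, are in 0.819% of promoters. The lack of a match says only that these letters are not in this window.

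Cytosolic ribosomal protein genes were lower in the combination, and all 3 cisplatin libraries took part. The family was collected by symbol after the data were seen. Of 86 tested members 35 fell (40.7%) and none rose, with a median log2 fold change of -0.81, beside 2.58% of all genes and an all-gene median of 0.01. For 60 of the 86 every combination library was below every cisplatin library, beside 12.9% of all genes. The summed level of the family was 18820, 18710 and 14770 CPM after cisplatin and 9306, 8983 and 9142 CPM in the combination, against 6954 to 7386 CPM with CBLB502 alone. Cisplatin library 3 was the lowest of its group but stood clear of the combination. Without it 74 members were lower. Without any one combination library the count was 2 to 4, without cisplatin library 1 or 2 it was 16 and 14, and the median stayed between -0.88 and -0.69 over these 6 settings.

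Rps3, a small-subunit protein that also takes part in DNA repair, was at 459, 451 and 466 CPM against 138, 123 and 115 CPM, 3.67-fold lower (-1.87 ± 0.17, adjusted p = 0.0012). Rpl13a, of the large subunit, was at 839, 777 and 1112 CPM against 211, 209 and 205 CPM (-2.12 ± 0.198, adjusted p = 0.0012). In both genes the groups were far apart and cisplatin library 3 was the highest. Rpl5, which with Rpl11 binds Mdm2, was at 521, 490 and 538 CPM against 184, 168 and 186 CPM (-1.52 ± 0.175, adjusted p = 0.00494). Rpl12 was called at the same adjusted p. These genes were chosen after their values were seen for their low p. Ribosomal protein genes have many near-identical copies, and Rps3, Rpl13a and Rpl5 overlap small nucleolar RNA genes, so their counts are uncertain where reads were split. Rpl21 was not called, at 23.4, 23.6 and 12.5 CPM against 20.7, 15.04 and 22.6 CPM (-0.03 ± 0.284, adjusted p = 0.981).

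Fewer members were called in 3 further families of small, abundant proteins. Of 82 mitochondrial ribosomal protein genes 11 fell and none rose (median -0.41), of 108 nuclear-encoded respiratory chain genes 9 fell and none rose (median -0.20), and of 40 proteasome subunit genes 6 fell and none rose (median -0.42). On log2(FPKM + 1) values the respiratory chain list had 6 higher, 4 lower and a median of 0.096. Over all 17931 genes that scale gave 2324 higher, 605 lower and a median of 0.071. On the same scale 5 mitochondrial ribosomal genes were higher and 10 lower, 2 proteasome genes higher and 7 lower, and no cytosolic ribosomal gene higher. Leaving out a combination library left 0 or 1 mitochondrial ribosomal calls and 0 in the other two families. By summed level cisplatin library 3 was the highest of its group for mitochondrial ribosomal and respiratory chain genes and the lowest for cytosolic ribosomal and proteasome genes. Psmb5, the chymotrypsin-like subunit of the proteasome, was at 117, 110 and 112 CPM against 44.5, 43.2 and 47.7 CPM (-1.32 ± 0.166, adjusted p = 0.00567). Mrpl41, of the mitochondrial large subunit, was at 26.4, 23.2 and 23.7 CPM against 8.95, 6.64 and 7.67 CPM (-1.65 ± 0.192, adjusted p = 0.00494). Sec61g, a subunit of the channel that takes proteins into the endoplasmic reticulum, was at 134, 101 and 74.1 CPM against 16.8, 15.2 and 12.8 CPM, 6.88-fold lower (-2.78 ± 0.402, adjusted p = 0.00844). Polr2a, the large subunit of RNA polymerase II and a long transcript, went the other way, at 16.2, 11.6 and 21.5 CPM against 37.2, 37.3 and 35.1 CPM (1.16 ± 0.215, adjusted p = 0.0193). The 4 genes named here were chosen after their values were seen.

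Gene length moved with these results. Genes with a mean of at least 5 CPM over the treated livers were split into 10 bins of equal size by the length that the deposited FPKM imply. In the shortest bin (median 1.3 kb) 109 genes fell and 5 rose, with a median log2 fold change of -0.44, and in the longest (14.8 kb) 5 fell and 36 rose, with a median of 0.24. The slope was present in each cisplatin library: against the combination mean, the shortest bin was higher by 0.40, 0.42 and 0.27 in libraries 1, 2 and 3 and the longest differed by -0.25, -0.30 and -0.22. The ribosomal protein genes have a median length of 2.01 kb. With the length trend removed from each library 36 of them fell and none rose (median -0.86), while the median of all genes was -0.13. Whether RNA quality or library preparation differed between the groups was not tested.

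**Figure D5:**
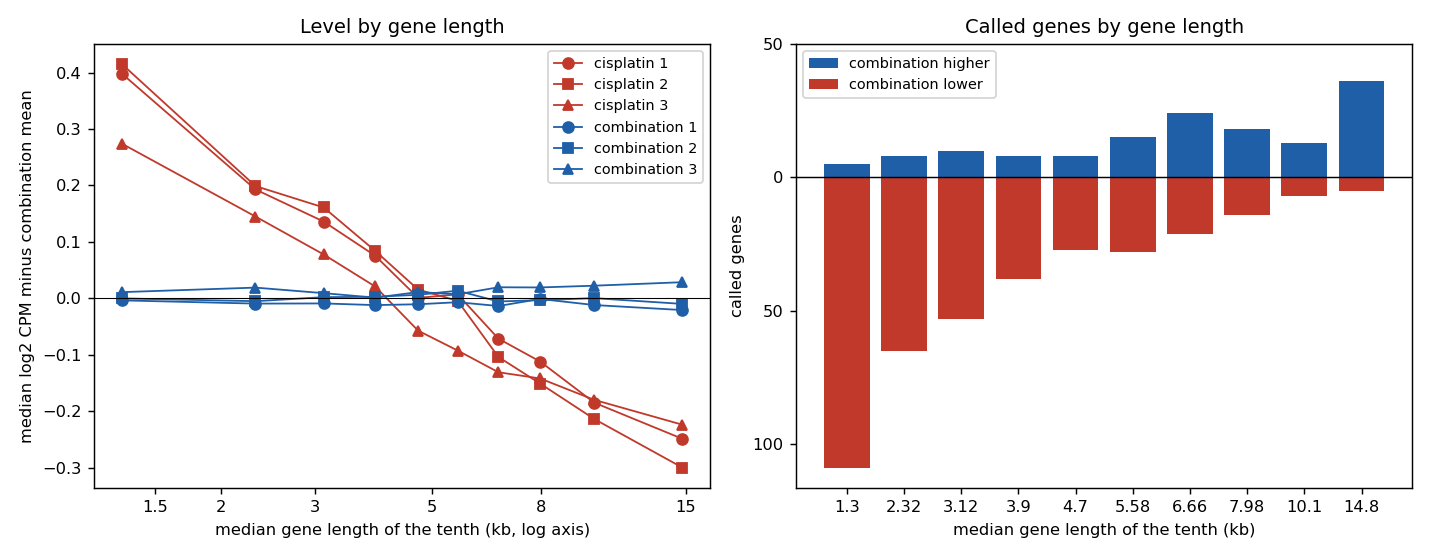
Left, median log2 CPM of each of the 6 libraries minus the combination mean, by bin of gene length (log axis), where the 3 cisplatin libraries slope down alike from short to long genes. Right, genes called higher (blue, upward) and lower (red, downward) per bin, from 5 and 109 in the shortest to 36 and 5 in the longest.

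Of 149 symbols of small structured RNAs 30 genes could be tested, and 9 fell and none rose (30.0%, beside 3.57% of all genes). Without any 1 combination library none was called. Summed over the list, the level was 37.1, 19.5 and 637 CPM after cisplatin and 7.01, 6.30 and 7.74 CPM in the combination. It was 6.155 to 7.735 CPM with CBLB502 alone, level with the combination, and 48.85 to 71.45 CPM in the controls. Rn7s1, an RNA of the signal recognition particle, was at 2.12, 2.39 and 292 CPM against 0.871, 0.495 and 1.07 CPM (-6.93 ± 1.69, adjusted p = 0.0477). Cisplatin library 3 alone was high, and without it the log2 fold change was -1.46. Rpph1, the RNA of ribonuclease P, had 2788 counts after cisplatin, at 1.65, 0.502 and 22.7 CPM, and none in the combination, at least 934-fold lower against 3 counts over the group. Cisplatin library 3 carried most of these counts, and without it the bound was 122-fold. Rnu3b1, a U3 small nucleolar RNA, was at 4.43, 1.04 and 0.629 CPM against 0.0169, 0.0183 and 0.0359 CPM (-6.34 ± 1.07, adjusted p = 0.0132). The U3 symbols stand on several IDs and lie within Tex14, so reads may be split among them. How much of such short RNA a library keeps depends on size selection, and its part in these differences was not tested.

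In kidney the same contrast gave 1 called gene of 20341 (0.00492%), and 2614 at an unadjusted p under 0.05. That gene was Noct, at 26.4 ± 2.08 CPM (SD, n = 3) after cisplatin and 114 ± 30.9 CPM in the combination (log2 fold change 2.11 ± 0.2, adjusted p = 0.00486). The liver minus kidney difference for Noct was -0.04 ± 0.436 (adjusted p = 1.0). Ciart had a log2 fold change of 2.26 in kidney without being called (adjusted p = 0.229), and its difference between organs was 0.28 ± 0.568 (adjusted p = 0.964).

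Fitted over all 24 libraries, the liver and kidney changes differed for 208 of 21570 genes (0.964%), 64 higher (0.297%) and 144 lower (0.668%) in liver. At an unadjusted p under 0.05 there were 2950. Rps3 in kidney was at 832 ± 361 CPM after cisplatin and 709 ± 43.1 CPM in the combination, and its difference of -1.70 ± 0.304 was called (adjusted p = 0.0184). Sec61g in kidney was at 75.02 ± 38 and 61.6 ± 6.68 CPM (difference -2.56 ± 0.503, adjusted p = 0.0197). Of 86 ribosomal protein genes 4 differed between the organs. Il1rn was near 1 CPM in both kidney groups, at 0.940 ± 0.226 and 1.26 ± 0.569 CPM, with a difference of -6.62 ± 1.49 (adjusted p = 0.0426). Rps3, Sec61g and Il1rn were named for their liver values, which this test uses again. No acute-phase gene of 29 differed in this test. Hpx had a log2 fold change of -2.09 in kidney (adjusted p = 0.324), and Saa1 one of -3.01 (adjusted p = 0.253). The count of 208 was 1591 without liver cisplatin library 3 and 0 without 1 of the kidney combination libraries.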

How the data were processed

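The authors deposited 1 table of 33272 genes with raw read counts and FPKM per library, per the file headers. Reads were trimmed with cutadapt 1.9 and checked with FastQC, per the submitters' processing notes, and the aligner, counter, strand setting and build are not given in the sources used here. Deposited counts of 12 liver libraries were tested with edgeR 4.0.16 in R 4.3.3 (filterByExpr, TMM, 1 fit over 4 groups), and a fit of all 24 gave the liver minus kidney difference. FPKM (12 liver columns) set gene length, a level of 5 for naming and a log2(FPKM + 1) test, and 12 kidney FPKM columns were not used. In kidney the headers number treated libraries 4 to 6 and the labels do not; those columns were given a group but no sample. Folds are ratios of mean CPM. Other settings were median-of-ratios scaling, DESeq2 1.42.0, limma-voom 3.58.1, no filter, a replicate block, 6 or 9 libraries, leaving out each library and, added after the data were seen, removal of a length trend. Named genes were the 12 highest and 12 lowest called, non-overlapping changes, up to 4 called members per list (else its most abundant) and 18 fixed genes. Members and 38 lists were chosen with earlier results of these data known, and 5 families by symbol after the data were seen. Genes outside this rule, chosen after their values were seen, were Itih4, Lyz2, Socs3, Clec4f, Cd5l, Psmb5, Polr2a, Sec61g, Tyrobp, Dbp, Rpl21, the genes of lowest p and those called without each library. The fit was tested on simulated data. Some genes are not reported here.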

Additional observations from a re-analysis of the deposited data

Results flagged for a closer look

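The change from cisplatin to the combination differed between liver and kidney for 208 genes in a fit over all 24 libraries. Of these 64 were higher and 144 lower in liver. For the 19 named genes whose difference was called, it was negative, liver minus kidney on the log2 scale. The 19 were chosen by their liver values, which this difference uses again, so the choice favoured their sign. The difference was -1.70 for Rps3, -1.98 for Rpl13a, -1.26 for Rpl5, -1.67 for Mrpl41, -1.40 for Atp6v0b, -1.89 for Tmem160, -2.56 for Sec61g and -2.85 for 1110065P20Rik. In kidney the fold changes of these 8 genes were between -0.32 and 0.17. For immune and other genes it was -2.42 for Slfn2, -1.91 for Cfp, -6.62 for Il1rn, -8.71 for Socs1, -4.76 for Efna1 and -2.99 for Lrat. For small RNAs it was -8.20 for Rnu3b1, -7.89 for Rnu3b2, -8.77 for Rnu3b3, -8.15 for Rnu3b4 and -14.02 for Rpph1, whose fitted value depends on the prior count because the liver combination held no count. Leaving out single kidney libraries gave counts of 0 to 721 genes.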

How the results depend on the processing

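The count of 640 was 740 with median-of-ratios scaling, 649 with the length trend removed, 2540 with DESeq2, 1943 with limma-voom, 2929 with limma on log2(FPKM + 1), 1471 with 9 treated libraries, 390 without a filter and 83 with only the 6 libraries compared (76 shared). Leaving out 1 library gave 6 to 4278. With the replicate number as a block it was 390. Same-numbered deviations correlated at 0.04 to 0.18 and differently numbered ones at -0.15 to 0.11. The labels state no pairing by number, so the main fit used no block, and whether the numbers pair libraries was not tested. The 208 genes of the liver minus kidney difference were 211 with median-of-ratios scaling, 1210 with DESeq2, 675 with limma-voom and 117 without a filter, and 0 to 1591 when 1 library was left out. No paired analysis was possible because treated kidney columns carry numbers that the labels do not use.

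Of 74 called named genes 72 were called by DESeq2 and 57 by limma-voom. The number was 70 with the length trend removed, 47 with the block and 14 with only the 6 libraries compared. With 1 library left out it was 6 to 74, which includes 5 genes chosen for being called whichever library was left out. No sign changed in any setting. Signs changed for 6 uncalled genes. On log2(FPKM + 1) they were Stat2 (0.17), Mgmt (0.037), Cdkn1a (0.24) and Alb (0.17). With 1 library left out, the value ranged from -0.40 to 1.01 for Kap, -0.080 to 2.23 for Cxcl12, -0.27 to 0.21 for Stat2, -0.84 to 0.46 for Mgmt, -0.65 to 0.14 for Cdkn1a and -0.26 to 0.0083 for Alb. At these depths counts of a few per library limit neutrophil and small RNA genes.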
